A study of Mus musculus with 8 samples.

Results

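The subunits of the ionotropic and metabotropic glutamate receptors, the GABA-A receptors and the glycine receptors were examined in the cortex of mice that lack the clock repressors SHARP1 and SHARP2. Members were taken by gene symbol: a probe set belonged to the group when its single annotated symbol began with Gria, Grid, Grik or Grin followed by a number, with Grm followed by a number, or with Gabr, Glra or Glrb. 32 of 12422 probe sets met this rule. They represented 25 of 8251 genes, and each gene was described by the probe set with the highest mean log2 signal. 13 genes encoded glutamate receptor subunits and 12 encoded GABA-A or glycine receptor subunits.

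The arrays came from 4 groups of 2 mice: Sharp1 and Sharp2 double null mutants (S1/2-/-) at ZT16, S1/2-/- at ZT4, wildtype (WT) at ZT16 and WT at ZT4. ZT counts hours from lights on, so that ZT16 lies in the dark phase and ZT4 in the light phase. All animals were 4 months old, of strain C57/bl6 and group housed in a light-dark cycle, and both genotypes were bred from doubly heterozygous parents. The null alleles were carried in the germline and not limited to the cortex. Each mouse gave 1 array of total RNA from cortex cut between bregma 0 and -2 mm, so that transcripts of all cortical cell types were measured together. The values were MAS5 signals on a linear scale, the brightness of a probe set after each array was scaled to a common mean. Signals of different probe sets are not compared here, because probe sets differ in how brightly they hybridise.

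Fast excitation in the cortex runs through AMPA receptors, assembled from Gria products, while NMDA receptors (Grin) admit calcium and gate synaptic plasticity. Kainate receptors (Grik) sit on both sides of the synapse and tune transmitter release and slow excitation. Inhibition is carried by pentameric GABA-A receptors, built from alpha, beta and a further gamma or delta subunit, with glycine receptors in a minor role in the cortex. In bulk tissue fewer cells of a type and less RNA per cell cannot be told apart.

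18 of the 25 genes had a probe set above the filter on dim signals, the upper part of the array starting at the 40th percentile of mean log2 signal (6.79). Gria4, Grik1, Grin2d, Gabra6, Gabrg3, Gabrr1 and Gabrr2 lay below it and are given as values only. Gabra6, known from cerebellar granule cells, stayed between 30.3 and 116 on all arrays, and the rho subunits Gabrr1 and Gabrr2, known from the retina, stayed between 9.07 and 82.6. Gabrg3, encoding the gamma3 subunit, lay between 81.4 and 161. A subunit was called changed when limma, fitted on all 8 arrays and 7453 probe sets, gave an adjusted p below 0.05 and a fold above 1.5.

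1 array held many of the lowest receptor signals. WT ZT16 mouse 2 held the lowest signal of 9 of the 18 subunits, against 19.5% of all 7453 probe sets, while each other array held the lowest of 1 or 2 subunits. Over all probe sets it also held the highest signal of 18.4%, more than the other arrays. The highest subunit signals were uneven too. S1/2-/- ZT16 mouse 1 held 6 of 18, against 13.7% of all probe sets, and S1/2-/- ZT4 mouse 2 held 5, against 10.9%. S1/2-/- ZT4 mouse 1 held 3, S1/2-/- ZT16 mouse 2 held 0 and each WT array 1. Of the targeted genes, the Bhlhe40 (SHARP2) probe set read 1043 and 889 in S1/2-/- at ZT16 and 913 and 834 in S1/2-/- at ZT4, against 1189 and 1285 in WT at ZT16 and 1074 and 983 in WT at ZT4. The null mutants thus kept a Bhlhe40 signal (log2 difference -0.30, SE 0.093). The sources do not place the probes within or outside the deleted sequence, which leaves the genotype labels without a check here, and Bhlhe41 (SHARP1) was not analysed here.

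Over both times together, no receptor subunit was called changed between S1/2-/- and WT (0 of 18, against 0.255% of all probe sets tested). Grik5 came closest. It encodes GluK5, a high-affinity kainate subunit that forms channels only together with GluK1, GluK2 or GluK3. At an unadjusted p below 0.05, 6 subunits were higher and 1 lower in S1/2-/-, 7 of 18, against 12.4% of all probe sets. 14 of the 18 were higher in S1/2-/-, against 50.4% of all probe sets, and the median log2 difference was 0.26, against 0.0018 over all probe sets. With the arrays centred on their medians, which lowered all differences by 0.067, 11 were higher and 7 lower. Without WT ZT16 mouse 2 the median was 0.16 with 13 higher. The number at an unadjusted p below 0.05 fell to 3 or 4 when either S1/2-/- ZT16 mouse, S1/2-/- ZT4 mouse 2 or either WT ZT4 mouse was left out. The 10 glutamate receptor subunits had a median of 0.33 with 8 higher, and the 8 GABA-A and glycine receptor subunits a median of 0.13 with 6 higher. These counts describe subunits of shared receptors and were not tested against other genes.

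Grik5 was the subunit on which the kainate class turned. Its signal was 2561 and 2350.0 in S1/2-/- at ZT16 and 1806 and 1909 in S1/2-/- at ZT4, against 1492 and 1490.1 in WT at ZT16 and 1397 and 1404 in WT at ZT4. All 4 S1/2-/- arrays lay above all 4 WT arrays, and the 2 arrays of each group lay close together, with a residual SD of 0.052 on the log2 scale that only 2.54% of probe sets undercut. The log2 difference over both times was 0.56 (SE 0.075), a 1.48-fold higher signal with a 95% interval of 0.40 to 0.73 on the log2 scale. limma gave an adjusted p of 0.0181, and 0.322% of all probe sets passed the adjusted p at any fold, but the fold stayed under 1.5 and the subunit was not called.

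The adjusted p of Grik5 did not hold in all fits. Leaving out either WT ZT16 mouse kept it below 0.05 (limma, 0.0103 without mouse 1 and 0.0296 without mouse 2), whereas leaving out any other mouse gave adjusted p values of 0.0656 to 0.117 with log2 differences of 0.53 to 0.59. Without the intensity trend of the limma prior it was 0.184, and with unmoderated statistics 0.181. For genotype comparisons the methods of the study named moderated statistics, so the unmoderated value is an alternative and not the test of the study. A second, dimmer Grik5 probe set did not show the difference. It read 88.1 and 282 in S1/2-/- at ZT16 and 281 and 337 in S1/2-/- at ZT4, against 116 and 293 in WT at ZT16 and 236 and 199 in WT at ZT4. Its log2 difference was 0.14 (SE 0.38, limma unadjusted p = 0.723), and its groups overlapped. With the mean of both probe sets the Grik5 difference was 0.35 with an adjusted p of 0.480 (limma). Median centring gave 0.50 with an adjusted p of 0.0518.

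**Figure D1:**
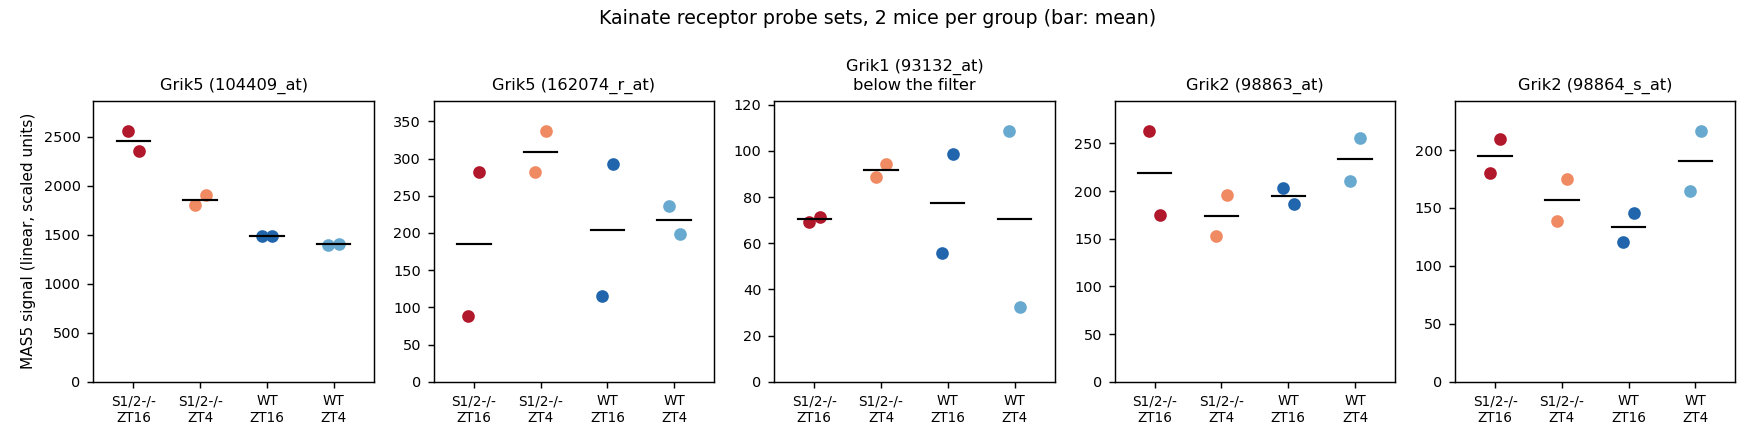
Linear MAS5 signal (y axis, from 0, 1 scale per panel) of the 5 kainate receptor probe sets in S1/2-/- and WT cortex at ZT16 and ZT4. Points are single mice and bars the group means (n = 2); only the brighter Grik5 probe set separates the 4 S1/2-/- arrays, 1806 to 2561, from the 4 WT arrays, 1397 to 1492.

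The promoter of Grik5 is shown because it is the subunit with the clearest genotype difference, and that of Grin2c, a further subunit without overlap between genotypes, because its promoter carries several GC boxes. Gabrg1, also without overlap, had a promoter sequence with 0 GC boxes, which is not printed. SHARP1 and SHARP2 are known to bind the E-box CACGTG. The lines for Grik5 and Grin2c give the 250 bases before the start site from RefSeq (GRCm38.p6), at chr7:25072370-25072619 for Grik5 and chr11:115267244-115267493 for Grin2c, both on the minus strand, with the GC box GGGCGG in capitals; 2 of the Grin2c boxes overlap by 1 base.
Grik5: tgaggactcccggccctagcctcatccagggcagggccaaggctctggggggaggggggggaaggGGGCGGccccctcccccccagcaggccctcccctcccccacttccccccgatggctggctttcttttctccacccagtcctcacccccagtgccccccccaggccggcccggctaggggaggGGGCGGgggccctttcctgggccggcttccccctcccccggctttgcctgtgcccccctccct
Grin2c: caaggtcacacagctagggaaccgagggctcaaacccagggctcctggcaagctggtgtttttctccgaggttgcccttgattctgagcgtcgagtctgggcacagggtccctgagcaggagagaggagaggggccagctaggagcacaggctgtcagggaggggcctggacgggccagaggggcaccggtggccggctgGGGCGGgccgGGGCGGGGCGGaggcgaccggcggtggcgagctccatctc
17 of the 25 genes had a promoter in the table, 23 sequences in all. CACGTG, which reads the same on both strands, was in 0 of the 23, against 6.02% of 32851 promoters of this length. Any E-box, CANNTG, which includes CACGTG and also reads the same on both strands, was in 43.5% of the 23 and in 66.2% of all promoters, with 0 copies for Grik5, 0 for Grin2c and 2 for Gabrg1. GGGCGG or its complement CCGCCC was in 34.8% of the 23 and in 32.7% of all promoters, with 2 copies for Grik5 and 3 for Grin2c. The bases of these windows were 75.2% G or C for Grik5, 68.8% for Grin2c and 35.6% for Gabrg1. A match of letters is a description of the sequence only.

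In their brightest probe sets the other kainate subunits did not follow Grik5 over both times. Grik2 encodes GluK2, a subunit that forms channels alone or with GluK5. It read 263 and 175 in S1/2-/- at ZT16 and 153 and 196 in S1/2-/- at ZT4, against 203 and 186 in WT at ZT16 and 211 and 256 in WT at ZT4. The genotypes overlapped, with a log2 difference of -0.14 (SE 0.21, 95% interval -0.61 to 0.33). A second Grik2 probe set had the opposite sign, 0.14 (SE 0.23). It read 180 and 210 in S1/2-/- at ZT16, against 121 and 145 in WT at ZT16, without overlap. At ZT4 it read 138 and 175 in S1/2-/-, against 165 and 217 in WT, with overlap. Grik1, encoding GluK1, lay below the filter at 69.3 and 71.5 in S1/2-/- at ZT16 and 88.8 and 94.5 in S1/2-/- at ZT4, against 55.8 and 98.7 in WT at ZT16 and 109 and 32.2 in WT at ZT4. The interval of the brighter Grik2 probe set does not include the Grik5 difference, but the difference between the subunits was not tested.

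Both times showed the higher signal of the brighter Grik5 probe set, and no subunit was called at either. At ZT16 the log2 difference of Grik5 was 0.72 (SE 0.11), 1.65-fold, with a limma adjusted p of 0.0578. At ZT4 it was 0.41 (SE 0.11), 1.33-fold, adjusted p 0.327. The dimmer Grik5 probe set was not higher at ZT16, with 88.1 and 282 in S1/2-/- against 116 and 293 in WT. With the mean of both Grik5 probe sets the differences were 0.25 at ZT16 and 0.46 at ZT4. 5 of 18 subunits were at an unadjusted p below 0.05 at ZT16, all higher, against 10.9% of all probe sets, and 0.0134% of all probe sets were called. At ZT4 3 were higher and 1 lower, 4 of 18, against 7.29%, and 0.0939% of all probe sets were called. The medians over the 18 subunits were 0.25 at ZT16 and 0.21 at ZT4. Both medians moved with single mice. Without WT ZT16 mouse 2 the ZT16 median was 0.094, with 11 subunits higher and 1 at an unadjusted p below 0.05, and without S1/2-/- ZT16 mouse 1 it was 0.15, also with 1. The ZT4 median was 0.074 without S1/2-/- ZT4 mouse 2, 0.11 without WT ZT4 mouse 1 and 0.36 without S1/2-/- ZT4 mouse 1. Without WT ZT16 mouse 1, Grik5 and Grin2b were called at ZT16, at 0.72 (limma adjusted p = 0.0218) and 2.79 (adjusted p = 0.0158), and without WT ZT16 mouse 2 instead the Grin2b difference at ZT16 was 0.45.

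**Figure D2:**
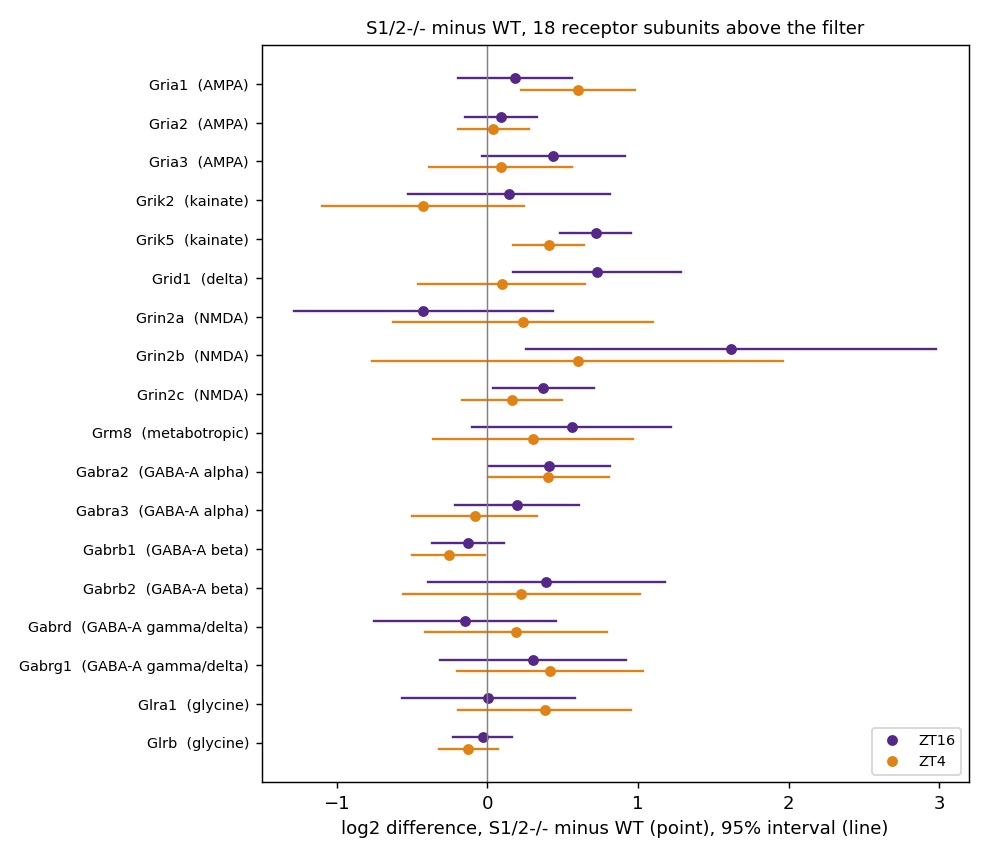
log2 difference of S1/2-/- minus WT (x axis) at ZT16 and at ZT4 for the 18 subunits above the filter, ordered by receptor class (y axis). Points are limma estimates from 2 mice per group and lines their 95% intervals; Grik5 is the subunit whose intervals lie farthest from 0 for their width, at 0.72 and 0.41, and Grin2b has the widest.

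Among AMPA receptor subunits Gria1, encoding GluA1, the subunit whose synaptic delivery accompanies potentiation, was the lowest in p. It read 1073 and 1061 in S1/2-/- at ZT16 and 1434 and 1115 in S1/2-/- at ZT4, against 1078 and 817 in WT at ZT16 and 864 and 806 in WT at ZT4. WT ZT16 mouse 1 reached the S1/2-/- values, so the genotypes overlapped. The log2 difference was 0.39 (SE 0.12, limma adjusted p = 0.264), with 0.18 (SE 0.17) at ZT16, or -0.016 without WT ZT16 mouse 2, and 0.60 (SE 0.17, adjusted p = 0.402) at ZT4 and no detectable difference between the times (-0.41, SE 0.24, limma unadjusted p = 0.115). A second Gria1 probe set gave 0.35 (SE 0.10, limma adjusted p = 0.251) without overlap between genotypes.

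Gria2, whose edited product GluA2 makes AMPA receptors impermeable to calcium, differed by 0.065 (SE 0.075, 95% interval -0.10 to 0.23), with signals of 8148 to 10215 on the 8 arrays. Another Gria2 probe set had the opposite sign, -0.067 (SE 0.098). Gria3 differed by 0.26 (SE 0.15), or 0.091 without WT ZT16 mouse 2, and Gria4 lay below the filter at 70.0 to 161. All 3 AMPA subunits tested were on the higher side, 1 of them at an unadjusted p below 0.05, but without WT ZT16 mouse 2 Gria2 was at -0.0074.

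The delta receptor subunit Grid1, encoding GluD1, is a synaptic organiser that binds cerebellins. Its signal was 808 and 751 in S1/2-/- at ZT16 and 418 and 621 in S1/2-/- at ZT4, against 599 and 369.8 in WT at ZT16 and 472 and 483 in WT at ZT4. Only the S1/2-/- arrays of ZT16 stood above all others. The log2 difference was 0.73 (SE 0.25, limma adjusted p = 0.365) at ZT16, 0.095 (SE 0.25) at ZT4 and 0.41 (SE 0.18, adjusted p = 0.380) over both. The Grid1 difference was 0.38 at ZT16 and 0.24 over both without WT ZT16 mouse 2.

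NMDA receptor subunits gave the largest difference and the widest spread. Grin2b, encoding GluN2B, read 266 and 183 in S1/2-/- at ZT16 and 252 and 245 in S1/2-/- at ZT4, against 161 and 32.0 in WT at ZT16 and 165 and 163 in WT at ZT4. The genotypes did not overlap, and WT ZT16 mouse 2 lay far below the other WT mice. The log2 difference over both times was 1.11 (SE 0.43, limma adjusted p = 0.343). Without WT ZT16 mouse 1 the subunit was called, at 1.69 with an adjusted p of 0.0181, a value that rests on the remaining, low ZT16 array. Without WT ZT16 mouse 2 the Grin2b difference was 0.52.

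Grin2c, encoding GluN2C, a subunit of receptors with weak magnesium block, read 666 and 654 in S1/2-/- at ZT16 and 550.2 and 632 in S1/2-/- at ZT4, against 508 and 513 in WT at ZT16 and 522 and 531 in WT at ZT4. All S1/2-/- arrays were above all WT arrays by a small step, 0.27 on the log2 scale (SE 0.11, limma adjusted p = 0.350). Grin2a, encoding GluN2A, overlapped widely between genotypes (-0.094, SE 0.27, or -0.31 without WT ZT16 mouse 2), and Grin2d was below the filter at 42.4 to 175. Grm8, a presynaptic group III receptor that restrains glutamate release, was the metabotropic receptor that the rule found. It read 316 and 261 in S1/2-/- at ZT16 and 237 and 326 in S1/2-/- at ZT4, against 246 and 154 in WT at ZT16 and 245 and 207 in WT at ZT4, and differed by 0.43 (SE 0.21, limma adjusted p = 0.441) with overlap, or by 0.26 without WT ZT16 mouse 2.

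Among GABA-A receptor subunits, the alpha, gamma and delta subunits tested were on the higher side over both times, and the beta subunits went both ways. Gabra2, encoding the alpha2 subunit found at the axon initial segment of pyramidal cells, read 558 and 616 in S1/2-/- at ZT16 and 788 and 746 in S1/2-/- at ZT4, against 519 and 374 in WT at ZT16 and 579 and 579.8 in WT at ZT4. Within each time both S1/2-/- mice lay above both WT mice, and the log2 difference was 0.41 at ZT16 and 0.40 at ZT4 (SE 0.18 each), 0.41 over both (SE 0.13, limma adjusted p = 0.268). The ZT16 difference of Gabra2 was 0.18 without WT ZT16 mouse 2. Gabra3 differed by 0.056 (SE 0.13).

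Gabrb1, encoding the beta1 subunit, was the member on the lower side with an unadjusted p below 0.05. It read 2263 and 2270.1 in S1/2-/- at ZT16 and 2546 and 2260.0 in S1/2-/- at ZT4, against 2632 and 2328 in WT at ZT16 and 2805 and 2927 in WT at ZT4. The difference was -0.19 (SE 0.076, limma adjusted p = 0.352), and the genotypes overlapped through WT ZT16 mouse 2 and S1/2-/- ZT4 mouse 1. Gabrb2, the other beta subunit measured, differed by 0.31 (SE 0.25), or by 0.041 without WT ZT16 mouse 2. Gabrg1, Gabra2 and Gabrb1 lie in 1 cluster on chromosome 5, where Gabrg1 and Gabra2 are direct neighbours, and their differences did not share a sign.

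Gabrg1, encoding the gamma1 subunit, read 272 and 210.0 in S1/2-/- at ZT16 and 222 and 319.8 in S1/2-/- at ZT4, against 199 and 189 in WT at ZT16 and 191 and 209 in WT at ZT4. The genotypes did not overlap, although the highest WT array, 209, almost reached the lowest S1/2-/- array, and the difference of 0.36 (SE 0.20) had an unadjusted limma p of 0.0957. Gabrd, whose delta subunit carries tonic inhibition outside synapses, differed by 0.021 (SE 0.19, 95% interval -0.41 to 0.45). Of the glycine receptor subunits Glrb, which anchors receptors to gephyrin, read 5829 and 5273 in S1/2-/- at ZT16 and 5972 and 5621 in S1/2-/- at ZT4, against 5699 and 5634 in WT at ZT16 and 6457 and 6196 in WT at ZT4. It differed by -0.079 (SE 0.062) with overlap, and Glra1 by 0.19 (SE 0.18). Taking all classes, the 4 S1/2-/- and 4 WT arrays did not overlap for Grik5, Grin2b, Grin2c and Gabrg1, 4 of 18 subunits and all higher in S1/2-/-, against 7.18% of all probe sets in either direction.

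**Figure D3:**
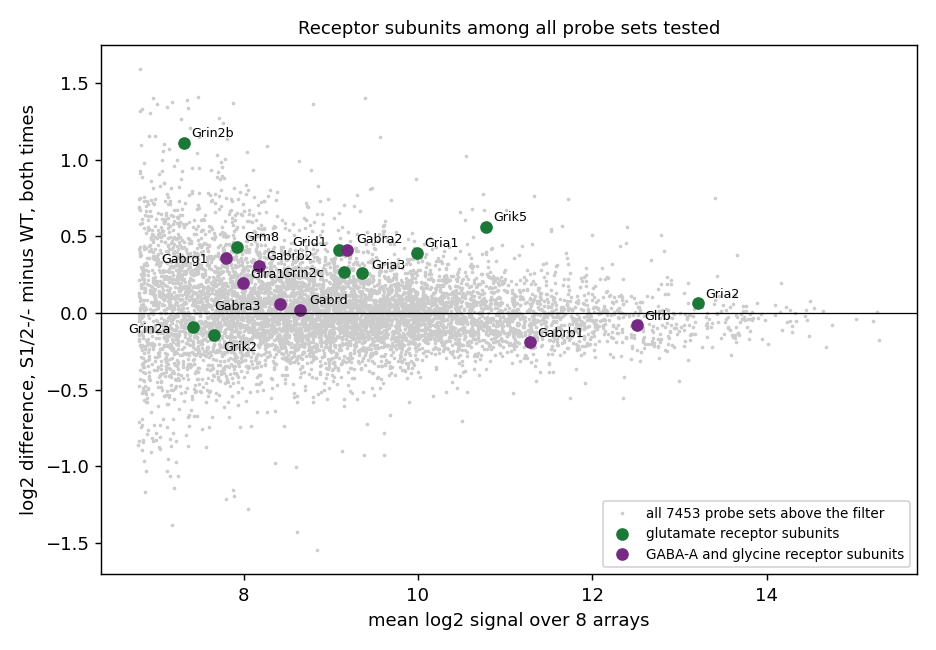
log2 difference of S1/2-/- minus WT over both times (y axis) against mean log2 signal over 8 arrays (x axis). Grey points are the 7453 probe sets tested and coloured points the 18 subunits; Grik5, at 0.56, lies above most probe sets of its signal, whereas Grin2b, at 1.11, lies in the dim range where differences scatter widely.

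Between ZT16 and ZT4 no subunit was called in either genotype or over both. Over both genotypes 6 subunits were higher and 12 lower at ZT16, with a median log2 difference of -0.069, against -0.0041 over all probe sets, and 0% of all probe sets were called. 2 subunits were higher and 3 lower at an unadjusted p below 0.05, 5 of 18, against 9.38% of all probe sets. The direction turned without WT ZT16 mouse 2, when 10 subunits were higher, 8 were lower and the median was 0.034, and without S1/2-/- ZT4 mouse 2, 9 were higher and 9 lower. Glra1 was higher and Gria3 and Gabrd lower at ZT16 without overlap between the 4 ZT16 and the 4 ZT4 arrays, 3 of 18 against 5.06% of all probe sets.

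Glra1 encodes the ligand-binding alpha1 glycine receptor subunit, best known from brainstem and spinal cord. At ZT16 it read 323 and 289 in S1/2-/- and 272 and 339 in WT, and at ZT4 261 and 225 in S1/2-/- and 221 and 157 in WT. The log2 difference of ZT16 minus ZT4 was 0.52 (SE 0.18, limma adjusted p = 0.421), with 0.33 in S1/2-/- (SE 0.26) and 0.70 in WT (SE 0.26, adjusted p = 0.625). Gria3, encoding GluA3, read 689 and 643 in S1/2-/- and 624 and 387 in WT at ZT16, against 846 and 715 in S1/2-/- and 721 and 743 in WT at ZT4, a difference of -0.40 (SE 0.15, adjusted p = 0.454), or -0.23 without WT ZT16 mouse 2.

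Gabrd read 425 and 241 in S1/2-/- and 341 and 369 in WT at ZT16, against 430.2 and 608 in S1/2-/- and 454 and 443 in WT at ZT4. The lower ZT16 signal amounted to -0.51 (SE 0.19, limma adjusted p = 0.456). Gabra2 was lower at ZT16 in both genotypes, with differences of -0.39 in S1/2-/- and -0.39 in WT (SE 0.18 each), although S1/2-/- ZT16 mouse 2 (616) lay above the WT ZT4 mice, so that the times overlapped over all 8 arrays. The WT difference of Gabra2 was -0.16 without WT ZT16 mouse 2. Gabrb1 (-0.15, SE 0.076) and Grin2b (-0.68, SE 0.43) were on the same side with unadjusted limma p values of 0.0843 and 0.146, but without WT ZT16 mouse 2 the Grin2b difference was -0.099. Grid1 differed by 0.30 (SE 0.18, limma adjusted p = 0.611), or 0.47 without WT ZT16 mouse 2, and Grm8 by -0.078 (SE 0.21), or 0.090 without that mouse. Gria2 differed by -0.059 (SE 0.075) in its brightest probe set and by -0.30 (SE 0.098) and -0.24 (SE 0.099) in a pair of dimmer ones, which shared the sign but not the size.

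Grik5 was the subunit with the lowest p for time, 0.25 over both genotypes (SE 0.075, limma adjusted p = 0.402). In S1/2-/- it was higher at ZT16 by 0.40 (SE 0.11, 1.32-fold, limma adjusted p = 0.458), and both ZT16 mice lay above both ZT4 mice. In WT the change was 0.091 (SE 0.11, 95% interval -0.14 to 0.33). The difference between these changes was 0.31 (SE 0.15, 95% interval -0.021 to 0.64, unadjusted p = 0.0637, adjusted p = 0.875), so a difference between genotypes in the change over time was not detectable with 2 mice per group. The dimmer Grik5 probe set had the opposite sign for time, -0.60 over both genotypes (SE 0.38), and the mean of both probe sets gave -0.18. Grid1 in S1/2-/- was higher at ZT16 by 0.61 (SE 0.25, adjusted p = 0.638), against -0.020 (SE 0.25) in WT, with a difference of 0.63 (SE 0.35, unadjusted p = 0.103), or 0.28 without WT ZT16 mouse 2.

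In S1/2-/- 3 of 18 subunits were at an unadjusted p below 0.05 for time, Grik5 and Grid1 higher and Gabrd lower, against 7.31% of all probe sets, with 0% called. In WT 2 of 18 were, Glra1 and Gria3, against 7.61%, with 0.0134% of all probe sets called. The S1/2-/- mice had 11 of 18 subunits on the lower side at ZT16, the median being -0.073, but without S1/2-/- ZT16 mouse 2 it was 0.045 with 12 higher. The WT mice had 14 of 18 on the lower side, and a median difference of -0.12. In WT without ZT16 mouse 2, 9 subunits were higher, 9 lower and the median was 0.011, and without ZT16 mouse 1 Gria3 (-0.92, limma adjusted p = 0.0432) and Grin2b (-2.36, adjusted p = 0.0266) were called. Without mouse 2 instead they were at -0.23 and -0.024. For the difference between the genotypes in the change over time, 0 of 18 subunits were at an unadjusted limma p below 0.05, against 5.69% of all probe sets, and 0% of all probe sets were called. Quantile normalization and unmoderated statistics each gave 1 subunit at an unadjusted p below 0.05. The median difference of changes was 0.15 with 13 of 18 above 0, or 11 of 18 with median centring, and -0.088 without WT ZT16 mouse 2.

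**Figure D4:**
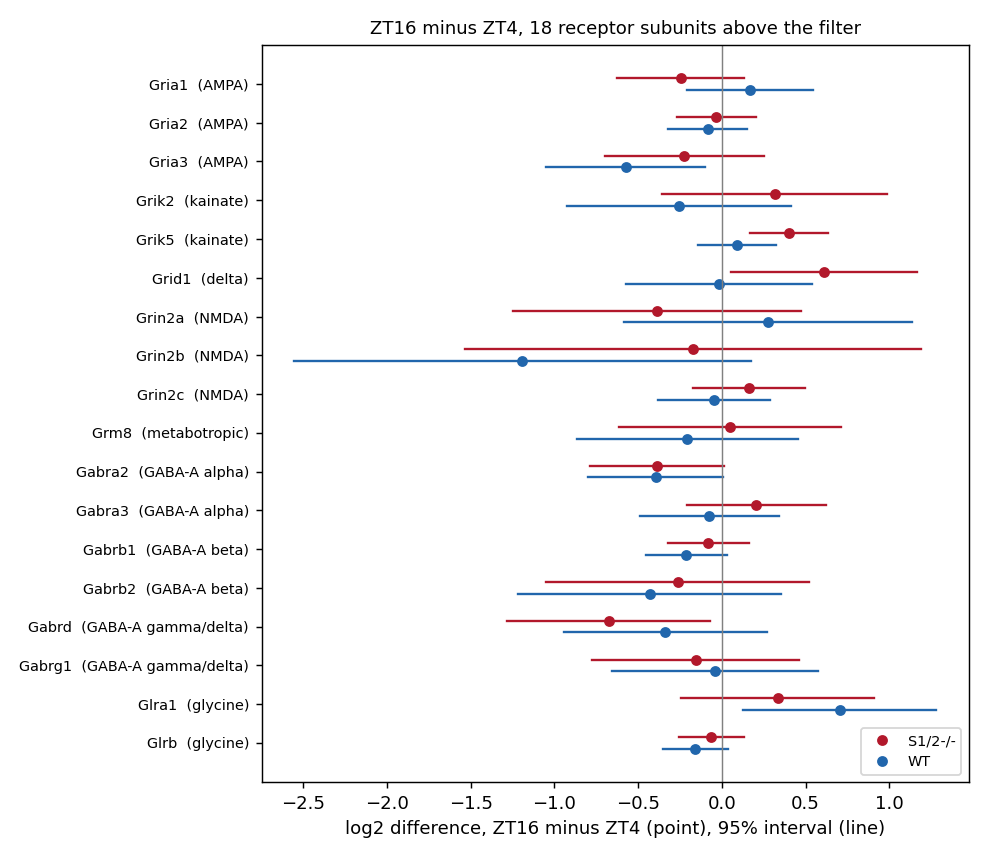
log2 difference of ZT16 minus ZT4 (x axis) in S1/2-/- and in WT for the 18 subunits above the filter, ordered by receptor class (y axis). Points are limma estimates from 2 mice per group and lines their 95% intervals; Grik5 reads 0.40 in S1/2-/- and 0.091 in WT, and Grin2b in WT has the lowest estimate, -1.19, with an interval that includes 0.

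**Figure D5:**
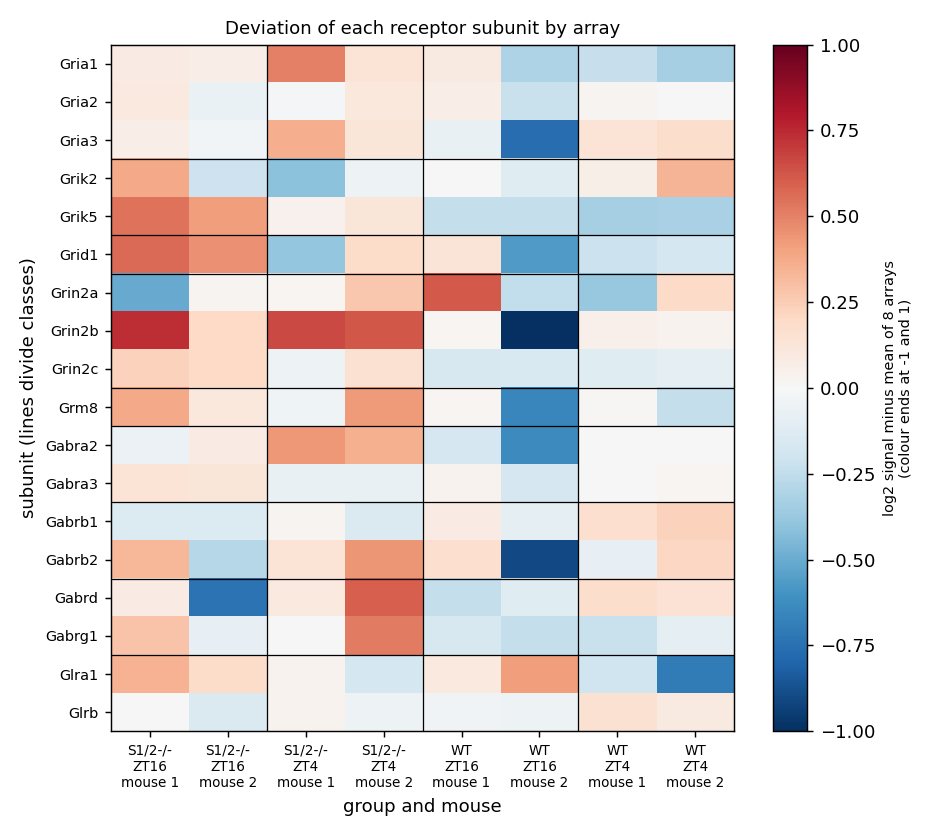
Deviation of log2 signal from the mean of the 8 arrays (colour) for the 18 subunits (rows, lines divide classes) on each array (columns, 2 mice per group). WT ZT16 mouse 2 has the lowest signal of 9 subunits, and Grik5 is above its mean on the 4 S1/2-/- arrays and below it on the 4 WT arrays.

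Genes of the same synapses were read from 6 lists. None of their measured members was called in any of the 7 comparisons, and the lowest adjusted p was 0.225 (limma). The median over all 45 related genes tested was 0.10 for genotype, or 0.035 with median centring. The counts of the lists stand beside 50.4% of all probe sets on the higher side and 12.4% at an unadjusted p below 0.05 for genotype over both times. Of proteins that accompany AMPA and kainate receptors 5 of 5 were higher in S1/2-/- over both times, 3 at an unadjusted p below 0.05, with a median of 0.19. Olfm1, a secreted olfactomedin found in AMPA receptor complexes, differed by 0.19 (SE 0.055) and Nptx2, a pentraxin that clusters AMPA receptors, by 0.35 (SE 0.12). Olfm1 read 8323 and 8145 in S1/2-/- at ZT16 and 8109 and 7992 in S1/2-/- at ZT4, against 6279 and 6593 in WT at ZT16 and 8152 and 7787 in WT at ZT4. The WT ZT16 mice alone were low, and Olfm1 was also the lowest in p of this list for time (-0.14, SE 0.055).

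Of excitatory scaffolds 9 of 13 were higher in S1/2-/- with a median of 0.072 and 0 at an unadjusted p below 0.05, Dlgap4 (0.17, SE 0.096) and the cerebellin Cbln1 (0.39, SE 0.22) being lowest in p. For time the lowest were Nsf, the ATPase that binds GluA2 (-0.23, SE 0.084), and Dlg1 (0.17, SE 0.075). In glutamate transport and metabolism 4 of 7 were higher in S1/2-/-, with a median of 0.19. Slc1a2, the astrocyte transporter that clears glutamate, read 488 and 514 in S1/2-/- at ZT16 and 679 and 497 in S1/2-/- at ZT4, against 368 and 202 in WT at ZT16 and 386 and 425 in WT at ZT4. The genotypes did not overlap, and the difference was 0.70 (SE 0.19, limma adjusted p = 0.225), with 0.92 and an adjusted p of 0.0225 without WT ZT16 mouse 1, and 0.48 (adjusted p = 0.309) without WT ZT16 mouse 2. Slc1a1, the neuronal transporter, differed by 0.19 (SE 0.095), and for time Got2 (0.33, SE 0.14) and Slc1a2 (-0.39, SE 0.19, or -0.18 without WT ZT16 mouse 2) were lowest in p.

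On the inhibitory side, 1 list joined GABA and glycine synthesis and transport with the chloride transporters Slc12a2 and Slc12a5. In it 6 of 8 genes were higher in S1/2-/- with a median of 0.099 and 0 at an unadjusted p below 0.05. Slc12a2 (0.10, SE 0.084) and Slc32a1, the vesicular GABA transporter (0.13, SE 0.12), were lowest in p, and for time Slc12a5, the chloride exporter of mature neurons (-0.51, SE 0.27), and Slc6a13 (0.25, SE 0.14). 5 of 9 inhibitory scaffold and trafficking genes were higher with a median of 0.056. Among them Trak2, a kinesin adaptor that binds GABA-A receptors, differed by 0.45 (SE 0.14, limma adjusted p = 0.262) and Trak1 by 0.15 (SE 0.084), and for time Gabarapl2 (-0.17, SE 0.074) and Gabarapl1 (-0.080, SE 0.059) were lowest in p. In the list of the GABA-B receptor and its auxiliary proteins 3 of 3 genes were on the higher side, with a median of 0.10. Among them were Kcnj9 (0.33, SE 0.16) and the receptor gene Gabbr1 (0.10, SE 0.066). For time Kcnj9 (-0.19, SE 0.16) and Kcnj3 (0.29, SE 0.26) were lowest in p.

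Marker lists of cell types and brain regions were read beside these values. Their counts for genotype over both times stand beside 50.4% of all probe sets higher and 12.4% at an unadjusted p below 0.05. Sums add the linear signals of all markers of a list on the array, also those below the filter, so that the brightest weigh most. Oligodendrocyte markers were higher in S1/2-/- in 8 of 8 tested, 4 of them called, against 0.255% of all probe sets, with summed signals of 27082 to 30371 in S1/2-/- and 17494 to 23509 in WT. Of astrocyte markers 7 of 9 were higher, among them Gfap, which was called at 1.15 (SE 0.13), with sums of 18192 to 20092 in S1/2-/- and 16837 to 19997 in WT. Cortical pyramidal neuron markers were higher in 5 of 7, 2 at an unadjusted p below 0.05, with sums of 14733 to 16229 in S1/2-/- and 11153 to 14614 in WT, the lowest in WT ZT16 mouse 2. Microglia markers were higher in 6 of 7, 2 at an unadjusted p below 0.05, with sums of 8416 to 9007 in S1/2-/- and 7064 to 8720 in WT. Interneuron markers were higher in 7 of 11, 0 at an unadjusted p below 0.05 (limma, 0 called), with overlapping sums of 31724 to 35034 in S1/2-/- and 31903 to 38583 in WT. Striatal markers (5 on the array) summed to 6894 and 11594 in S1/2-/- at ZT16, against 8893 and 13435 in S1/2-/- at ZT4. In WT they summed to 9919 and 14325 at ZT16, against 3764 and 4348 at ZT4. Of these 5 markers, 3 were above the filter. Penk alone read 8476 and 12383 in WT at ZT16, against 3279 and 3601 in WT at ZT4. Choroid plexus markers (7 on the array) summed to 1719 and 1711 in S1/2-/- at ZT16, against 3736 and 2160.0 in S1/2-/- at ZT4. In WT they summed to 5222 and 4680.0 at ZT16, against 1648 and 1791 at ZT4. Of these 7 markers, 3 were above the filter. Ttr alone read 2582 and 2412 in WT at ZT16, against 83.2 and 331 in WT at ZT4. Of the remaining lists, endothelium markers were higher in S1/2-/- over both times in 5 of 6, hippocampus markers in 2 of 2 and cerebellum markers in 5 of 7. Thalamus markers were higher in 2 of 5 and meninges markers in 2 of 7. No marker of these lists was at 0, and their part in the receptor values was not tested.

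The genes that neighbour Grik5 in the annotation, looked up after its values were seen, gave no common direction. Of those measured, Rabac1 differed by -0.20 (SE 0.063) and Pou2f2 by -0.95 (SE 0.26), whereas Zfp574, the next gene, differed by 0.33 (SE 0.15) and 0.59 (SE 0.50) in its probe sets and Arhgef1 by 0.22 (SE 0.21). Cd79a and Gsk3a differed by -0.014 (SE 0.34) and -0.095 (SE 0.054). Unadjusted limma p values were 0.0048 for Pou2f2, 0.0092 for Rabac1 and 0.048 for the Zfp574 probe set at 0.33. The others lay above 0.05, against 12.4% of all probe sets below it, and none reached an adjusted limma p below 0.05. Replicates of the tested subunits varied with a median residual SD of 0.23 on the log2 scale, against 0.20 over all probe sets, and ranged up to 0.85 for Grin2b.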

How the data were processed

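Cortex RNA of 8 mice had been hybridised by the authors to Affymetrix mouse arrays, 1 array a mouse and 2 mice a group. The authors deposited MAS5 signal intensities on a linear scale, which summarise the probes of a probe set and are scaled so that the mean of each array, trimmed by 2% at each end, is near 500; the MAS5 version was not given in the sources used here. RNA had been extracted with Trizol and columns and amplified in 1 round. The table held 12488 probe sets, of which 66 control probe sets were left out. 10833 of the others had 1 gene symbol in the platform annotation, 396 had several and 1193 had none.

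Signals below 1 (64 values) were set to 1 and log2 transformed. Probe sets with a mean log2 signal at or above the 40th percentile (7453) were fitted in limma 3.58.1 (R 4.3.3) with 4 group means and eBayes with an intensity trend. 7 comparisons were drawn, and p values were adjusted by the Benjamini-Hochberg method over all probe sets tested. The fold and adjusted p limits and the moderated statistics for genotype followed the methods of the study, which did not name moderated statistics for change over time. Unmoderated statistics were fitted as an alternative for the 7 comparisons. The number of mice limits the precision. The fit was tested on simulated data with independent normal errors, which hold no outlying array. Members and lists were chosen with earlier results of these data known. Values in every sample are given for the kainate subunits, for the lowest p of each class in the genotype and time comparisons and for the 3 lowest in the others. Related genes are the 2 lowest in p of each list. Alternatives were the filter, normalization, pseudocount, trend, replicate block, arrays fitted, unmoderated statistics, probe set choice and each mouse left out.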

Additional observations from a re-analysis of the deposited data

How the results depend on the processing

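With 2 mice a group, single arrays carry much weight, and dim probe sets such as that of Grin2b vary most. The kainate medians rest on 2 subunits. No subunit was called with all 8 arrays and the filter used in the Results. With the filter at the 60th percentile, also on all 8 arrays, Grik5 was called at ZT16. 93 of 2219 single-subunit values turned sign under an alternative, among them the change of Grik5 over time with the mean of its probe sets. 684 counts and medians stayed within the spread or within 1.5 times of their value, and 114 did not. The adjusted p of Grik5 over both times stayed below 0.05 without the filter (limma, 0.0290) and with the filter at the 60th percentile (0.0127), quantile normalization (0.0168) and a pseudocount of 16 (0.0174). The cause was not tested for any of the changes below.

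The replicate numbers did not pair the mice: deviations of equally numbered mice correlated by -0.0014 to 0.098. With the replicate number as a block the genotype comparison over both times had 6 subunits at an unadjusted p below 0.05. The Grik5 difference was then 0.56 (limma adjusted p = 0.0271), and the block changed the call of no subunit.

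Without the filter the kainate median was 0.14 for genotype at ZT16, 0.41 at ZT4 and 0.091 for time in WT, and the median of the related genes was 0.085 for genotype at ZT16, 0.076 at ZT4 and 0.074 for the difference of changes. With the filter at the 60th percentile Grik5 was the one kainate subunit left; it was called at ZT16 (0.72, limma adjusted p = 0.0410), 1 subunit past the threshold. The kainate median was then 0.56 for genotype over both times, 0.72 at ZT16, 0.41 at ZT4 and 0.091 for time in WT. The median over the subunits was 0.095 at ZT4, 1 subunit was at an unadjusted p below 0.05 for time in WT, and the related genes had medians of 0.085 for genotype at ZT16, -0.014 for time in S1/2-/- and 0.044 for the difference of changes.

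Quantile normalization gave the related genes medians of 0.070 for genotype at ZT4 and 0.0018 for time in S1/2-/-, and 1 subunit at an unadjusted p below 0.05 for the difference of changes. Median centring, which lowered all genotype differences at ZT16 by 0.10, gave 3 subunits at an unadjusted p below 0.05 at ZT16. The related genes then had medians of 0.035 for genotype over both times, 0.011 at ZT16, 0.060 at ZT4, -0.023 for time in S1/2-/-, -0.018 for time in WT and 0.033 for the difference of changes. Without the intensity trend 4 subunits were at an unadjusted p below 0.05 for genotype over both times, 2 at ZT4 and 1 for time in S1/2-/-. With only the arrays of the groups compared 2 were at ZT16. The unmoderated statistics gave 2 for genotype at ZT16, 3 for time over both genotypes, 1 for time in WT and 1 for the difference of changes. With every probe set counted the kainate median was -0.034 for time over both genotypes and -0.25 in WT, 4 subunits were at an unadjusted p below 0.05 for time in WT, and the related genes had medians of 0.048 for genotype at ZT4, 0.00553 for time in S1/2-/- and 0.17 for the difference of changes. With the mean of a gene's probe sets the kainate median was -0.11 for time over both genotypes, 0.017 in S1/2-/- and 0.25 for the difference of changes, and the related genes had medians of 0.063 for genotype at ZT4 and 0.074 for the difference of changes.

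Leaving out 1 mouse at a time gave 0 to 1 subunits past the threshold for genotype over both times, 0 to 2 at ZT16 and 0 to 2 for time in WT. Subunits at an unadjusted p below 0.05 numbered 3 to 9 for genotype over both times, 1 to 8 at ZT16, 2 to 4 at ZT4, 2 to 7 for time over both genotypes, 1 to 4 in S1/2-/-, 0 to 7 in WT and 0 to 3 for the difference of changes. The median over the subunits ranged over 0.094 to 0.36 for genotype at ZT16, 0.074 to 0.36 at ZT4, -0.12 to 0.045 for time in S1/2-/-, -0.25 to 0.011 in WT and -0.088 to 0.23 for the difference of changes. The kainate median ranged over 0.25 to 0.61 for genotype at ZT16, 0.18 to 0.54 for time in S1/2-/- and 0.26 to 0.62 for the difference of changes, and the Grik5 difference at ZT16 over 0.66 to 0.78.

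Of the related genes 0 to 1 were past the threshold for genotype over both times, 0 to 2 at ZT16, 0 to 1 for time over both genotypes and 0 to 1 in WT, all without WT ZT16 mouse 1. These were Slc1a2 (0.92 over both times, limma adjusted p = 0.0225, and 1.31 at ZT16, adjusted p = 0.0279) and Camk2a (1.57 at ZT16, adjusted p = 0.0185). For time Camk2a was at -1.02 over both genotypes (adjusted p = 0.0282) and -1.84 in WT (adjusted p = 0.0120). Camk2a read 617 and 210.3 in WT at ZT16. Without WT ZT16 mouse 2 instead, Slc1a2 was at 0.48 over both times and 0.45 at ZT16, and Camk2a at 0.013 for genotype at ZT16, -0.25 for time over both genotypes and -0.29 in WT. Their median ranged over 0.043 to 0.12 for genotype over both times, 0.038 to 0.17 at ZT16, 0.043 to 0.097 at ZT4, -0.058 to -0.000635 for time over both genotypes, -0.042 to 0.044 in S1/2-/-, -0.073 to 0.012 in WT and 0.0530 to 0.106 for the difference of changes.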
